A study of Mus musculus with 3 samples.

Results

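Claudins are membrane proteins of the tight junction, the belt near the top of an epithelial or endothelial sheet that limits what passes between neighbouring cells. The 6 genes described here (Cldn3, Cldn4, Cldn5, Cldn6, Cldn7 and Cldn18) were chosen by symbol, with earlier results of these data known. All 6 were listed in each of the 3 libraries, out of 46675 genes listed in at least 1 library. A further 24 claudin genes were listed and are used only for comparison. Single cells were captured from the glandular stomach (hindstomach) of mouse embryos at E18.5, and RNA was counted at its 3′ end. The YAP5SA library had the genotype Shh-Cre;YAP5SA, the Yap knockout library Shh-Cre;YaploxP/loxP, and the control library Shh-Cre alone, so all 3 carried the Cre driver. Shh-Cre drives recombination where Shh is active, which includes gastric epithelium. YAP is a coactivator held back by the Hippo pathway, and the YAP5SA mutant lacks the serines through which that pathway inhibits it. Each genotype had 1 library, and the sources do not state how many embryos went into it, so no test between genotypes was possible. Every interval below is a 95% interval that covers counting error only.

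The claudins that a cell makes set which ions and solutes its junctions hold back. Cldn18 is best known from lung and stomach, and in mice its stomach form is needed to hold back acid between epithelial cells. Cldn3, Cldn4 and Cldn7 are widespread epithelial claudins, and Cldn7 also binds the adhesion protein EpCAM. Cldn6 is best known from embryonic epithelia and pluripotent cells. Cldn5 is the main claudin of endothelium, best studied in the blood-brain barrier.

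The letters around the start of member genes are shown because YAP acts on genes through TEAD factors, often together with AP-1. A window of 250 bases before to 50 bases after each start was taken from RefSeq on GRCm38.p6, whereas the submitters' processing notes name GRCm39 for the files. All 6 genes matched, with 8 starts. GGAATG, the core of the TEAD motif, and TGACTCA, the AP-1 motif, were searched on both strands, and no window held both. Capitals mark the matches. Windows without a match are shown only for Cldn18, and those of Cldn3, Cldn5 and the other Cldn7 start are left out. Whether the letters bear on the levels was not tested.

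Cldn6 (chr17:23679115-23679414, plus strand): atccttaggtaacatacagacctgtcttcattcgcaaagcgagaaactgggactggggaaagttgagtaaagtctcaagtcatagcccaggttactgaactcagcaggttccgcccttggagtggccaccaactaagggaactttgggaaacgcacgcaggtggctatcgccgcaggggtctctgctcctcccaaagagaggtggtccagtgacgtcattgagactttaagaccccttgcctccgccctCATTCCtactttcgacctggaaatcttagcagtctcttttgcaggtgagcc
Cldn7, 1 of 2 starts (chr11:69964529-69964828, plus strand): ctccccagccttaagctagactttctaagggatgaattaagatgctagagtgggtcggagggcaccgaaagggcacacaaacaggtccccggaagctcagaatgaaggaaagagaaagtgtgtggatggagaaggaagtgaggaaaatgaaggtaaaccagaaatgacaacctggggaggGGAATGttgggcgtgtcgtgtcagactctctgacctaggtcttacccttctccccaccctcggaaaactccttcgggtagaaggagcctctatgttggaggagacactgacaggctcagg
Cldn4 (chr5:134946885-134947184, minus strand): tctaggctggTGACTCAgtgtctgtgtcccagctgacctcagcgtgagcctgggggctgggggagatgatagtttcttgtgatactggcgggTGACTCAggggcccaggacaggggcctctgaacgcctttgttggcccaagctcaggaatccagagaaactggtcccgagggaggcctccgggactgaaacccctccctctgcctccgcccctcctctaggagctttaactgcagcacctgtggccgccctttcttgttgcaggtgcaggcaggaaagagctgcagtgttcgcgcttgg
Cldn18, stretch at one start (chr9:99710014-99710313, minus strand): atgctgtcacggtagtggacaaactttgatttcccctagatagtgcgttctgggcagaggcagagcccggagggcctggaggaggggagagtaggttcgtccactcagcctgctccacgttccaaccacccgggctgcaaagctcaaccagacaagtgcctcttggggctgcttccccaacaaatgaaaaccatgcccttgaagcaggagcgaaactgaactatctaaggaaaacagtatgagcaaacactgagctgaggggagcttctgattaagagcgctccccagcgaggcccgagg
Cldn18, stretch at the other start (chr9:99717218-99717517, minus strand): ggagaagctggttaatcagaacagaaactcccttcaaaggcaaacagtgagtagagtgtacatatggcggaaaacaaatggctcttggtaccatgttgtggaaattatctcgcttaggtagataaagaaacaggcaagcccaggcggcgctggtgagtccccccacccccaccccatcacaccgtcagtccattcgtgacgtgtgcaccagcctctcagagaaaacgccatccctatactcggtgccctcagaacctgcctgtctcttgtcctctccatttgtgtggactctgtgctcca

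The TEAD letters occurred in Cldn6, as CATTCC beginning 1 base before the start, and at 1 of the 2 Cldn7 starts, beginning 70 bases before it. They occurred in 14.7% of the 32851 mouse windows of the same kind. The AP-1 letters occurred in Cldn4, beginning 240 and 158 bases before the start, and in 1709 of the 32851 windows. Neither was in the windows of Cldn3, Cldn5 or Cldn18 or at the other Cldn7 start. A match describes the letters and is not a site. Cldn18 has alternative first exons used in lung and in stomach, which 3′ tags do not separate, so its values sum both forms. In the same annotation Cldn3 and Cldn4 are neighbours and Cldn6 neighbours Cldn9. Cldn3 overlaps Wbscr25, which had 100 UMIs in YAP5SA, 14 in Yap knockout and 7 in control epithelial-like cells, so their reads may be split between the genes.

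After filtering, 8518 YAP5SA, 4890 Yap knockout and 6959 control cells were kept, with a median per cell of 5224.5 unique molecular identifiers (UMIs) in YAP5SA, 4979.5 in the Yap knockout and 4900 in the control. Cells were gated into 15 broad classes by 6 markers each, none of them a claudin. Epithelial-like cells, gated by Epcam, Cdh1, Krt8, Krt18, Elf3 and Spint1, numbered 1575 in YAP5SA (median 7290 UMIs), 713 in the Yap knockout (5008) and 494 in the control (4207), and none of these 6 markers was at 0 in their sums. No class took 1911 YAP5SA, 1245 Yap knockout and 1033 control cells. The libraries stood apart when all cells were clustered together. YAP5SA epithelium lay mostly in cluster 3 (1545 YAP5SA, 0 Yap knockout and 2 control cells), and epithelium of the other libraries in clusters 22 (43 YAP5SA, 557 Yap knockout and 519 control cells) and 23 (17 YAP5SA, 578 Yap knockout and 320 control cells), the last of which raised 3 of the 6 epithelial markers. Other classes separated too. Fibroblast cluster 5 had 2457 YAP5SA, 0 Yap knockout and 19 control cells, and smooth muscle cluster 14 had 458 YAP5SA, 1 Yap knockout and 9 control cells. Thus with 1 library per genotype library and genotype cannot be told apart. Yap1 stood at 54.9 CPM (51.4 to 58.5) in YAP5SA, 22.5 CPM (19.1 to 26.4) in Yap knockout and 47.9 CPM (40.8 to 55.8) in control epithelial-like cells, where CPM is a gene's UMIs per 1000000 UMIs summed over a class. A 3′ tag need not lie in a deleted exon, so this level does not measure the deletion.

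Cldn3, Cldn4, Cldn6, Cldn7 and Cldn18 were highest in epithelial-like cells of each library, and Cldn5 was highest in endothelial-like cells of each library. The first place stood clear of the second by its interval, except for Cldn6 in the Yap knockout and the control, where epithelial-like cells held 34 UMIs in the Yap knockout and 19 in the control. Below the first place nearly all neighbouring classes had overlapping intervals, so the order of the other classes is largely undetermined.

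**Figure D1:**
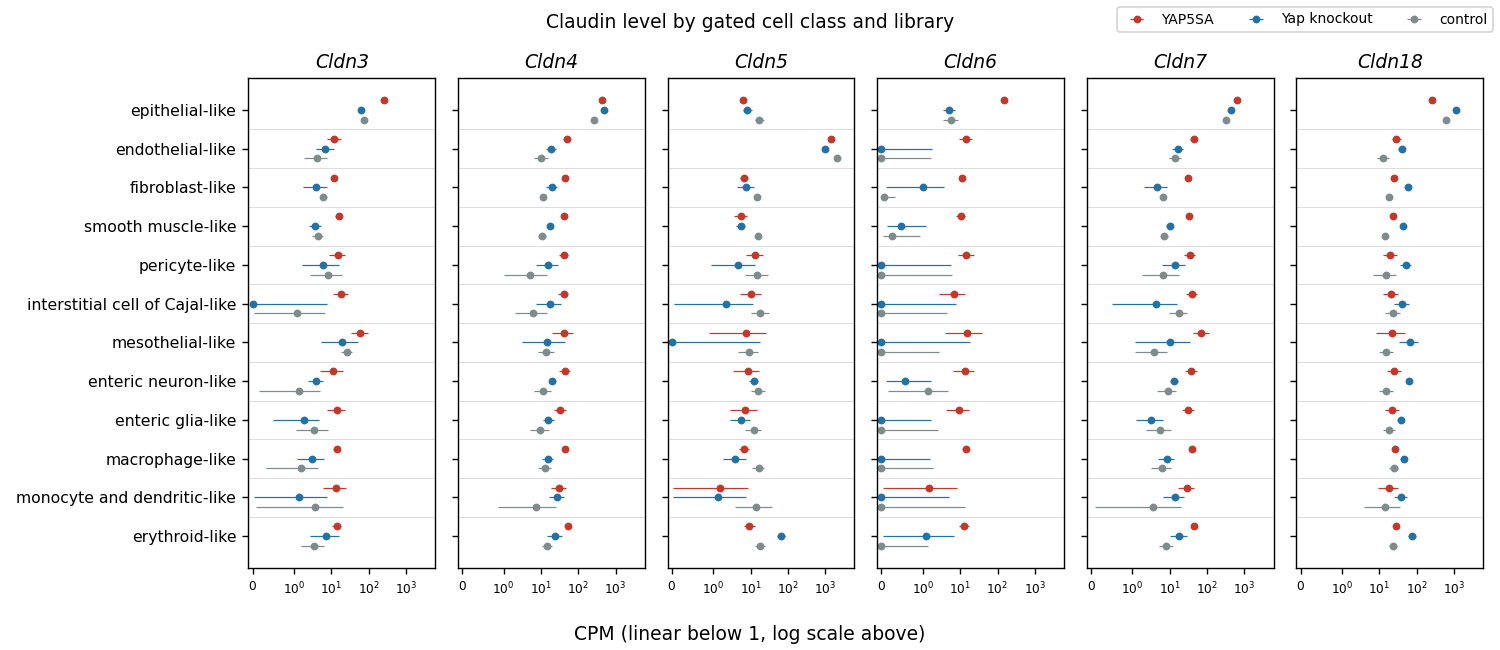
CPM of each claudin (x axis, linear below 1 and logarithmic above) in gated cell classes (rows) for the YAP5SA, Yap knockout and control libraries, with 95% counting intervals. Epithelial-like cells carry the highest level of 5 claudins and endothelial-like cells that of Cldn5, and the remaining classes lie below them.

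Mesothelial-like cells, from the sheet that covers the organ, were second for Cldn3 in each library. They stood at 59.1 CPM (33.8 to 96.0, 16 UMIs) in YAP5SA, 19.8 CPM (5.39 to 50.6, 4 UMIs) in the Yap knockout and 26.4 CPM (18.5 to 36.5, 36 UMIs) in the control. A single YAP5SA cell held 7 of the 16 UMIs. The interval stood clear of the third class in YAP5SA but overlapped it in the Yap knockout and the control, so second place is not settled there.

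The epithelial claudins were also counted in cells that should lack them. Over gated cells that were neither epithelial- nor endothelial-like, Cldn4 stood at 43.5 CPM in YAP5SA, 18.4 CPM in the Yap knockout and 11.4 CPM in the control. That was 9.84% of the epithelial level in YAP5SA, 3.77% in the Yap knockout and 4.28% in the control. In YAP5SA, Cldn4 lay between 29.7 and 53.0 CPM over 10 unrelated classes of at least 50 cells, and such a level outside epithelium is taken as the background for the epithelial values. Its source was not tested, and whether free RNA was corrected before deposit is not stated in the sources. Outside epithelium Cldn18 stood at 24.2 CPM in YAP5SA, 49.6 CPM in the Yap knockout and 17.7 CPM in the control, and Cldn6 at 11.7 CPM in YAP5SA, 0.426 CPM in the Yap knockout and 0.141 CPM in the control. Cldn5 outside the endothelium was 0.491% of its endothelial level in YAP5SA, 0.949% in the Yap knockout and 0.736% in the control. An apparent exception, 65.9 CPM of Cldn5 in Yap knockout erythroid-like cells, came from 55 UMIs of which 52 lay in 1 cell.

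In epithelial-like cells, YAP5SA had more Cldn3, Cldn6 and Cldn7 and less Cldn18 than the control, each by at least 2-fold, and Cldn4 was higher by less than 2-fold. Of the 5 members that reached 20 CPM in either library, 3 were at least 2-fold higher and 1 at least 2-fold lower. Among all 7233 genes at that level, 12.7% were at least 2-fold higher and 8.3% at least 2-fold lower. The members were chosen with earlier results of these data known, and Cldn6 reached 20 CPM only in YAP5SA. Their count beside these shares is therefore a description. Cldn5, the sixth member, stayed under 20 CPM, at 6.42 CPM in YAP5SA, 8.20 CPM in the Yap knockout and 17.3 CPM in the control. The summed level of the 6 endothelial gate markers in the same cells was 68.0 CPM in YAP5SA, 74.0 CPM in the Yap knockout and 101.7 CPM in the control, and its part in the Cldn5 values was not tested.

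Cldn6 stood at 149.6 CPM (143.8 to 155.5) in YAP5SA, 5.07 CPM (3.51 to 7.09) in Yap knockout and 5.58 CPM (3.36 to 8.72) in control epithelial-like cells. It was high in 1 library, and the other libraries overlapped. YAP5SA was 26.8-fold higher than the control (17.1 to 44.6). The ratio of the Yap knockout to the control was 0.909 (0.504 to 1.69), so a difference within those bounds was not detectable at this depth.

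Cldn3 stood at 249.4 CPM (242.0 to 257.1) in YAP5SA, 63.4 CPM (57.5 to 69.7) in the Yap knockout and 74.6 CPM (65.7 to 84.4) in the control. Again YAP5SA alone stood high, and the intervals of the others overlapped. YAP5SA was 3.34-fold higher than the control (2.94 to 3.81). The Yap knockout to control ratio was 0.850 (0.726 to 0.996), and lay between 0.722 and 1.0014 over 12 alternative settings, so no direction is given for it.

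Cldn7 stood at 649.3 CPM (637.2 to 661.5) in YAP5SA, 425.9 CPM (410.4 to 441.8) in the Yap knockout and 310.5 CPM (292.1 to 329.8) in the control. The 3 intervals were apart, with the control lowest. YAP5SA was 2.09-fold higher than the control (1.96 to 2.23), and the Yap knockout 1.37-fold higher (1.28 to 1.47). The Yap knockout ratio was 1.10 with cells weighted equally and 1.25 without squamous-like and intestinal-like cells. The YAP5SA ratio sat at the edge of the 2-fold rule: it was 1.98 with a stricter gate of at least 4 markers and a lead of 2, and 1.78 with the RNA of non-epithelial cells subtracted.

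Cldn4 stood at 442.0 CPM (432.0 to 452.1) in YAP5SA, 489.4 CPM (472.8 to 506.4) in the Yap knockout and 266.8 CPM (249.7 to 284.7) in the control. Both altered libraries lay above the control, by 1.66-fold (1.55 to 1.78) in YAP5SA and 1.83-fold (1.70 to 1.98) in the Yap knockout. With cells classed by cluster the YAP5SA ratio was 2.01, which passes 2-fold.

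Cldn18 had another order. It stood at 250.2 CPM (242.7 to 257.8) in YAP5SA, 1122 CPM (1097 to 1148) in the Yap knockout and 596.4 CPM (570.7 to 622.9) in the control. The intervals were apart, with YAP5SA lowest and the Yap knockout highest. YAP5SA was 2.38-fold lower than the control (2.26 to 2.51), and the Yap knockout was 1.88-fold higher (1.79 to 1.98).

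In the Yap knockout comparison 4 members reached 20 CPM in epithelial-like cells, and 0 were at least 2-fold higher and 0 at least 2-fold lower. Among the 6846 genes measured, 2.98% were at least 2-fold higher and 3.33% at least 2-fold lower. The count of 0 higher holds for the pooled class, since Cldn4 and Cldn18 passed 2-fold in single groups of these cells, given below. Both comparisons share the control library.

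**Figure D2:**
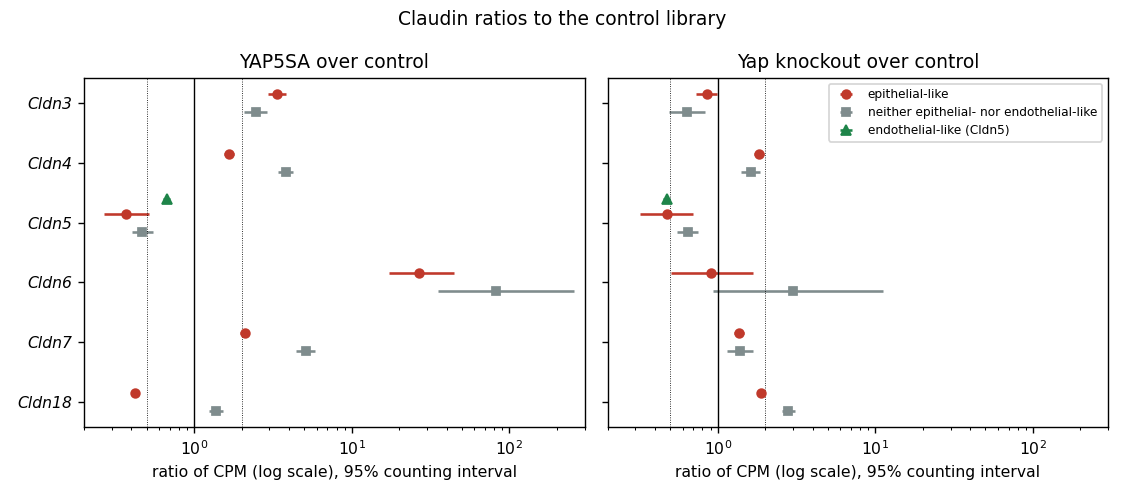
Ratio of CPM to the control library (log scale) for each claudin, with 95% counting intervals, in YAP5SA (left panel) and the Yap knockout (right panel). Circles are epithelial-like cells, squares gated cells that are neither epithelial- nor endothelial-like, triangles Cldn5 in endothelial-like cells, and dotted lines mark 2-fold; Cldn18 in YAP5SA lies at 0.420 in epithelial-like cells and 1.37 outside them.

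RNA of stromal cells differed between the epithelial sums. The summed level of 10 stromal genes was 4762 CPM in YAP5SA, 1489 CPM in the Yap knockout and 9431 CPM in control epithelial-like cells, and none of the 10 was at 0. Of these genes 8 were at least 2-fold lower in YAP5SA than in the control, with Dcn (ratio 0.336) and Col3a1 (0.376) lowest and Fn1 (1.23) and Sparc (0.831) highest. All 10 were at least 2-fold lower in the Yap knockout, with Col1a1 (0.118) and Col1a2 (0.149) lowest and Fn1 (0.368) and Postn (0.307) highest. When the non-epithelial profile of each library was subtracted in proportion to its collagen genes, 20.6% of the YAP5SA, 19.1% of the Yap knockout and 32.0% of the control sum was removed. The YAP5SA ratio was then 2.90 for Cldn3, 1.41 for Cldn4, 22.7 for Cldn6 and 0.355 for Cldn18. The Yap knockout ratio was then 1.55 for Cldn4, 1.16 for Cldn7 and 1.58 for Cldn18, each in the direction given above.

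Shares of cells with a UMI were compared at equal depth, with each cell thinned to 1500 UMIs. This left out 88 YAP5SA, 75 Yap knockout and 62 control epithelial-like cells. Cldn6 had a UMI in 17.7% of YAP5SA, 0.647% of Yap knockout and 0.683% of control epithelial-like cells. Cldn3 had one in 24.8% of YAP5SA, 7.23% of Yap knockout and 8.04% of control cells, and Cldn7 in 59.1% of YAP5SA, 36.2% of Yap knockout and 34.3% of control cells. Cldn18 had one in 25.7% of YAP5SA, 63.2% of Yap knockout and 49.7% of control cells. These shares had the order of the CPM values. Cldn4 had one in 43.3% of YAP5SA, 38.5% of Yap knockout and 24.7% of control cells, and since the CPM was higher in the Yap knockout, no order is read between it and YAP5SA.

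In gated cells that were neither epithelial- nor endothelial-like (median 5489.5 UMIs in YAP5SA, 6503 in the Yap knockout and 5412 in the control), the thinned share for Cldn18 was 3.57% in YAP5SA, 7.62% in the Yap knockout and 2.63% in the control. For Cldn4 it was 6.13% in YAP5SA, 2.95% in the Yap knockout and 1.69% in the control, and for Cldn6 it was 1.75% in YAP5SA, 0.0431% in the Yap knockout and 0.0234% in the control. Each epithelial share was above the outside share of its own library, though the Cldn6 shares of the Yap knockout and the control rest on few cells. Without thinning, Cldn18 was found in 55.9% of YAP5SA, 77.8% of Yap knockout and 72.1% of control epithelial-like cells, and Cldn6 in 52.4% of YAP5SA, 3.23% of Yap knockout and 3.04% of control cells.

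**Figure D3:**
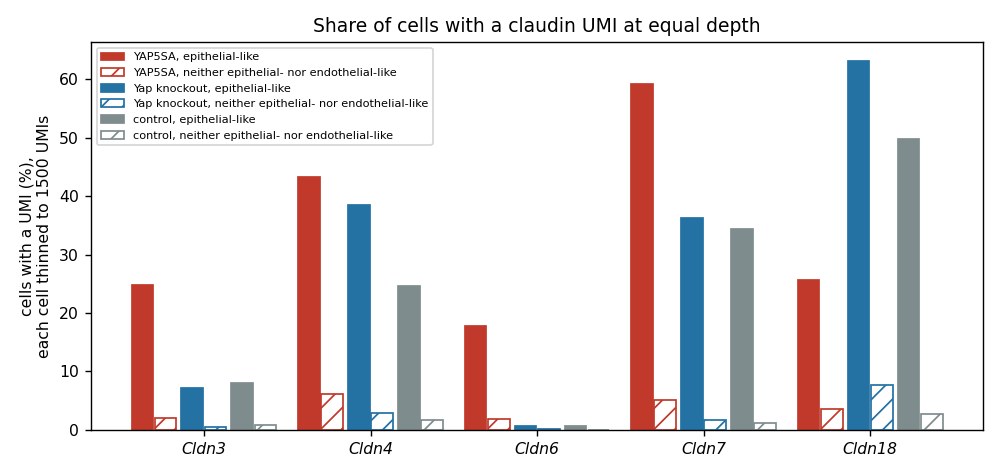
Share of cells (per cent) with at least 1 UMI of each epithelial claudin after every cell was thinned to 1500 UMIs, for YAP5SA, Yap knockout and control. Filled bars are epithelial-like cells and hatched bars gated cells that are neither epithelial- nor endothelial-like; Cldn6 reaches 17.7% in YAP5SA epithelial-like cells, and Cldn18 is lowest in YAP5SA.

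Detection in the same cell was set beside the product of the separate thinned shares. In YAP5SA epithelial-like cells, Cldn3 and Cldn18 were found together in 3.17% of cells, against a product of 6.37%, while Cldn3 and Cldn4 were found together in 14.2%, against a product of 10.7%. In YAP5SA cells without a subclass, Cldn3 and Cldn18 were found together in 2.96%, against a product of 6.07%. In the Yap knockout that pair stood at 3.91% against a product of 4.57%, and in the control at 2.97% against a product of 3.999%. Cldn4 and Cldn7 lay above their product in each library, at 26.7% against 25.6% in YAP5SA, 17.1% against 13.9% in the Yap knockout and 10.8% against 8.47% in the control. These describe sparse counts within 1 library each.

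Epithelial-like cells were gated further by 6 subclasses of 6 markers each. YAP5SA cells were mostly squamous-like (303) or took no subclass (1238), with 3 pit-like and 10 neck and chief-like cells. The Yap knockout had 142 pit-like, 107 neck and chief-like and 322 cells without a subclass, and the control had 119 pit-like, 87 neck and chief-like and 246 without one. Pit cells line the gastric surface, and neck and chief cells lie in the glands. YAP5SA was therefore not compared with the control in pit-like or neck and chief-like cells.

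Among cells without a subclass, YAP5SA differed from the control in the same direction as over all epithelial-like cells. Cldn3 was 5.04-fold higher than in the control (3.99 to 6.48), Cldn6 26.1-fold (14.1 to 54.4), Cldn7 1.88-fold (1.72 to 2.05) and Cldn4 1.73-fold (1.55 to 1.93), and Cldn18 was 2.27-fold lower (2.10 to 2.44). Among all genes measured in these cells, 13.7% were at least 2-fold higher in YAP5SA and 8.05% at least 2-fold lower. The group holds the cells that no subclass gate took, so its make-up need not match between libraries. Inside the YAP5SA library, squamous-like cells had less Cldn6, at 95.1 CPM (85.3 to 105.7), than cells without a subclass, at 167.5 CPM (160.6 to 174.7). Squamous-like cells had more Cldn4, at 628.1 CPM against 391.6 CPM without a subclass, and more Cldn3, at 312.7 CPM against 230.3 CPM. Cldn18 overlapped, at 238.3 CPM (222.7 to 254.8) in squamous-like cells and 252.2 CPM (243.7 to 261.0) without a subclass.

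Cldn18 and Cldn4 were higher in the Yap knockout in each of the 3 groups that could be compared. In pit-like cells Cldn18 stood at 1210.4 CPM in the Yap knockout and 652.1 CPM in the control, a ratio of 1.86 (1.67 to 2.06). Neck and chief-like cells had 1273 CPM of it in the Yap knockout and 589.1 CPM in the control, a ratio of 2.16 (1.93 to 2.42), and without a subclass the ratio was 2.08 (1.93 to 2.25). The Cldn4 ratio was 2.08 (1.70 to 2.56) in pit-like cells, 2.13 (1.83 to 2.49) in neck and chief-like cells and 2.37 (2.10 to 2.67) without a subclass. Among all genes measured, 3.57% were at least 2-fold higher in pit-like cells, 6.23% in neck and chief-like cells and 4.44% without a subclass. The Cldn7 ratio was 1.44 (1.19 to 1.76) in pit-like cells, 1.33 (1.15 to 1.54) in neck and chief-like cells and 1.29 (1.16 to 1.44) without a subclass, where its thinned share was 36.3% in the Yap knockout and 36.2% in the control. The Cldn3 ratio was 0.688 (0.429 to 1.13) in pit-like cells and 1.82 (1.21 to 2.82) in neck and chief-like cells. Cldn6 had 0 UMIs in the pit-like cells of both libraries. The limit of 3 counts used for a 0, which is not the end of an interval, equals 1.60 CPM in the Yap knockout and 4.57 CPM in the control.

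Among Yap knockout subclasses of at least 20 cells, the 49 intestinal-like cells had the lowest Cldn18, at 299.0 CPM (254.6 to 349.0), and the highest Cldn7, at 917.5 CPM (838.4 to 1002). The 70 parietal-like cells, the acid-secreting type, had 1084 CPM of Cldn18 and the lowest Cldn7, at 220.2 CPM (186.1 to 258.6). Dividing cells, flagged by proliferation genes, numbered 355 in YAP5SA, 63 in the Yap knockout and 50 in the control. Their Cldn18 stood at 257.7 CPM in YAP5SA, 1383 CPM in the Yap knockout and 676.9 CPM in the control, the order seen over all epithelial-like cells, and their Cldn6 at 139.6 CPM in YAP5SA, 7.18 CPM in the Yap knockout and 7.85 CPM in the control.

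**Figure D4:**
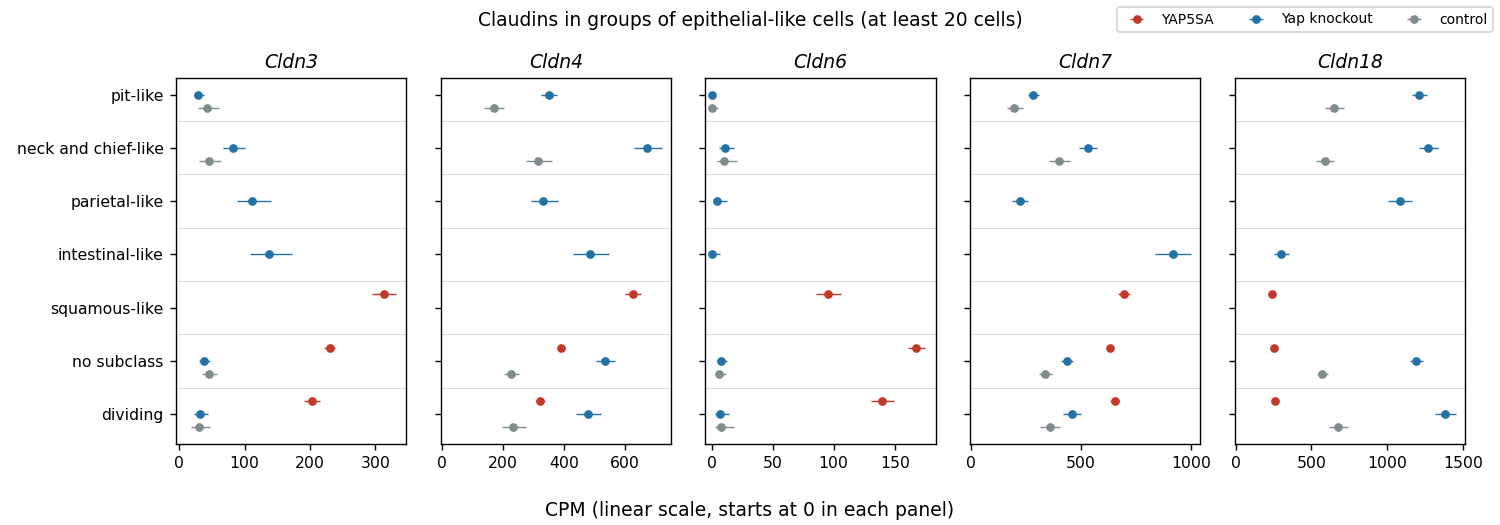
CPM (x axis, linear) of the 5 epithelial claudins in groups of epithelial-like cells with at least 20 cells (rows), for YAP5SA, Yap knockout and control, with 95% counting intervals. In the pit-like, neck and chief-like, unclassed and dividing rows the Yap knockout lies above the control for Cldn4 and Cldn18, and YAP5SA lies lowest for Cldn18 in the unclassed and dividing rows.

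Summing a whole library gave other ratios, and there more epithelial cells and more RNA per cell cannot be told apart. Epithelial-like cells were 18.5% of YAP5SA, 14.6% of Yap knockout and 7.10% of control cells. Over all kept cells Cldn18 stood at 90.2 CPM in YAP5SA, 259.5 CPM in the Yap knockout and 66.5 CPM in the control. YAP5SA was thus 1.36-fold higher than the control in the whole sum (1.30 to 1.42), where epithelial-like cells alone were 2.38-fold lower. In the sum, 4 of the 6 members were at least 2-fold higher in YAP5SA and 1 at least 2-fold lower, with 5.36% and 3.49% of all genes measured. Among the higher ones, Cldn3 stood at 11.4 CPM and Cldn6 at 0.531 CPM in the control. They reached the 20 CPM minimum only through YAP5SA, so that count is a description. In the Yap knockout 3 of 4 measured members were at least 2-fold higher and 0 at least 2-fold lower, with 6.12% and 3.83% of all genes.

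Cldn5 was lower in endothelial-like cells of both altered libraries, from 188 YAP5SA, 217 Yap knockout and 180 control cells. Endothelial cells lay mainly in cluster 10 (122 YAP5SA, 195 Yap knockout and 106 control cells) and cluster 18 (58 YAP5SA, 33 Yap knockout and 71 control cells). Cldn5 stood at 1413 CPM (1362 to 1466) in YAP5SA, 1005 CPM (962.8 to 1048) in the Yap knockout and 2112 CPM (2051 to 2174) in the control. The intervals were apart, with the control highest. The ratio to the control was 0.669 (0.638 to 0.702) in YAP5SA and 0.476 (0.452 to 0.501) in the Yap knockout. Among the members measured in this class, 1 (Cldn5) was at least 2-fold lower in the Yap knockout, where 4.22% of genes were, and 0 in YAP5SA, where 1.68% were. With cells weighted equally the Yap knockout ratio was 0.556, which ends that call. Among 4 measured members Cldn4, Cldn7 and Cldn18 were at least 2-fold higher in YAP5SA (2.91% of genes). Among 2 measured in the Yap knockout Cldn18 was (5.99% of genes). Their levels were near those of the other non-epithelial classes. In the control Cldn4 stood at 10.1 CPM, Cldn7 at 14.2 CPM and Cldn18 at 12.8 CPM. Each thus reached the 20 CPM minimum only through the altered library, and these ratios are not read as a result. The 6 epithelial gate markers summed to 558.9 CPM in YAP5SA, 151.8 CPM in Yap knockout and 147.4 CPM in control endothelial-like cells, and their part in those ratios was not tested.

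Counts of endothelial subclasses also differed between the libraries, and their part in the Cldn5 level was not tested. Cells flagged by arterial genes numbered 43 in YAP5SA, 29 in the Yap knockout and 67 in the control. They had the most Cldn5, at 2623 CPM (2474 to 2779) in YAP5SA, 1756 CPM (1621 to 1899) in the Yap knockout and 3393 CPM (3271 to 3518) in the control. The intervals were apart within arterial cells too, with the Yap knockout lowest, and no ratio was read there because both altered libraries had fewer than 50 such cells. Cells that were neither arterial nor lymphatic stood at 909.0 CPM in YAP5SA, 855.0 CPM in the Yap knockout and 1127 CPM in the control. Among these the ratio to the control was 0.807 (0.743 to 0.875) in YAP5SA and 0.759 (0.704 to 0.819) in the Yap knockout. Lymphatic cells numbered 26 in YAP5SA, 1 in the Yap knockout and 16 in the control. Stromal RNA in the endothelial sums stood at 8921 CPM in YAP5SA, 4951 CPM in the Yap knockout and 12922 CPM in the control, and its part was not tested.

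**Figure D5:**
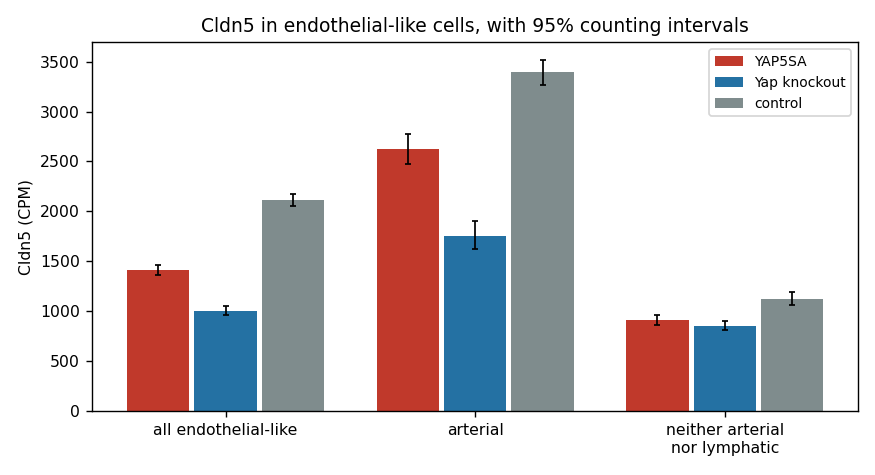
Cldn5 (CPM, linear from 0) in all endothelial-like cells, in those flagged arterial and in those neither arterial nor lymphatic, for YAP5SA, Yap knockout and control, with 95% counting intervals. The control is the highest in each group, and the gap is smallest, 909.0 CPM in YAP5SA and 855.0 CPM in the Yap knockout against 1127 CPM in the control, in cells that are neither arterial nor lymphatic.

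Of the 24 other claudin genes, 1 reached 20 CPM in epithelial-like cells and 1 in endothelial-like cells. Cldn23 stood at 25.1 CPM in YAP5SA, 12.7 CPM in Yap knockout and 16.2 CPM in control epithelial-like cells, a YAP5SA ratio of 1.55 (1.17 to 2.10). Cldn12 stood at 9.03 CPM in YAP5SA, 21.4 CPM in Yap knockout and 6.41 CPM in control endothelial-like cells, a Yap knockout ratio of 3.33 (1.80 to 6.56). Among all genes measured in endothelial-like cells, 5.99% were at least 2-fold higher in the Yap knockout. Cldn23 and Cldn12 were each below 20 CPM in the control and passed that minimum only through 1 altered library. Their ratios are not read as a result.

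Genes that share the junction with claudins were read from lists of 25 tight junction partners, 14 adherens junction genes and 12 desmosome genes. The lists and the members were chosen with earlier results of these data known, so counts and medians over them are descriptions. In epithelial-like cells, 5 of 19 measured tight junction partners were at least 2-fold higher in YAP5SA and 1 at least 2-fold lower, where 12.7% of all genes were higher and 8.3% lower. They had a median log2 ratio of 0.51 against 0.15 for all genes and 1.06 for the 5 measured claudins. Cgnl1, counted among the higher partners, stood at 33.0 CPM in YAP5SA and 14.7 CPM in the control, and was measured only through YAP5SA. The highest were Crb3, a polarity protein of the apical membrane (209.9 CPM in YAP5SA, 82.6 CPM in the control, 2.54-fold), and Tjap1 (48.8 CPM in YAP5SA, 20.6 CPM in the control, 2.37-fold). The lowest were Tjp3, a scaffold that binds claudins (42.4 CPM in YAP5SA, 86.7 CPM in the control, 2.04-fold lower), and the adhesion receptor Cxadr, at a ratio of 0.692 (0.616 to 0.778).

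Adherens junctions and desmosomes anchor neighbouring cells to each other through cadherins. Of 13 measured adherens junction genes 3 were at least 2-fold higher in YAP5SA and 0 lower, against the same 12.7% and 8.3% of all genes, with a median log2 ratio of 0.53 against 0.15 for all genes. Cdh3, which encodes P-cadherin, had a ratio of 3.28 (2.34 to 4.73) and Nectin4 of 2.65 (1.90 to 3.81), and the lowest were Pvr at 0.709 and Ctnnd1 at 0.816. In the control Cdh3 stood at 10.6 CPM, Nectin4 at 10.9 CPM and Nectin3 at 14.7 CPM, so these were measured only through YAP5SA. Pvr, at 18.3 CPM in YAP5SA, was measured only through the control. The ratios of Cdh3 and Nectin4 are not read as a result. Of 8 measured desmosome genes 3 were at least 2-fold higher and 0 lower, with a median log2 ratio of 0.49, against the same values for all genes. These lists are short, and nothing particular to them is read from the counts. Evpl and Ppl, plakins of stratified epithelium, had ratios of 3.52 (2.89 to 4.35) and 3.49 (2.63 to 4.75), while Pkp2 and Pkp3 stood at 0.931 and 0.982. Ppl, at 14.7 CPM in the control and 51.3 CPM in YAP5SA, was measured only through YAP5SA, and its ratio is not read as a result.

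In the Yap knockout 0 genes of these 3 lists were at least 2-fold higher or lower in epithelial-like cells, where 2.98% of all genes were higher and 3.33% lower, so a count of 0 in lists this short is near that share. The median log2 ratio was 0.10 over 18 tight junction partners, 0.44 over 10 adherens junction genes and 0.03 over 7 desmosome genes, against 0.03 for all genes and 0.67 for the 4 measured claudins. Among tight junction partners the ratio of Magi3, a scaffold protein, was 1.56 (1.26 to 1.96). The lowest ratios were those of Pard6b at 0.635 (0.494 to 0.817) and Amotl1 at 0.848. Among adherens junction genes Ctnna1 stood at 1.45, Nectin2 at 1.40, Ctnnb1 at 0.914 and Vcl at 1.03. Among desmosome genes Dsg2 stood at 1.60, Pkp2 at 1.36, Perp at 0.841 and Pkp3 at 0.985.

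The genes most like each member were sought over 30 sums, 10 classes in 3 libraries, by Pearson's r of log2(CPM + 5). The sums share libraries, depth and background RNA, and r is given as a description. The epithelial- and endothelial-like sums quoted below are among the 30, so a shared order of libraries follows in part from the choice of genes. Nearest to Cldn6 were Anxa8 (0.99) and Clic3 (0.98). In epithelial-like cells Anxa8 stood at 209.1 CPM in YAP5SA, 3.13 CPM in the Yap knockout and 6.17 CPM in the control. Nearest to Cldn18 were Clic6 (0.96), Gsta1 (0.95) and Tmem184a (0.95). Clic6 stood at 14.1 CPM in YAP5SA, 77.0 CPM in the Yap knockout and 54.6 CPM in the control, the order of Cldn18.

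Nearest to Cldn3 were Crb3 (0.96), Epn3 (0.95) and Lamb3 (0.95). Nearest to Cldn4 were Krt8 (0.98), Fgfbp1 (0.98) and Sprr1a (0.98), and nearest to Cldn7 were Krt18 (0.96), Sprr1a (0.96) and Epn3 (0.96), where Krt8 and Krt18 are gate markers. Nearest to Cldn5 were the endothelial genes Vwf (0.99), Sema3g (0.98) and Ptprb (0.98). In endothelial-like cells Vwf stood at 971.3 CPM in YAP5SA, 628.2 CPM in the Yap knockout and 982.1 CPM in the control. Sema3g stood at 91.8 CPM in YAP5SA, 78.0 CPM in the Yap knockout and 130.0 CPM in the control, so both were lowest in the Yap knockout, as Cldn5 was. Ptprb stood at 365.7 CPM in YAP5SA, 604.9 CPM in the Yap knockout and 460.2 CPM in the control, and was highest in the Yap knockout.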

How the data were processed

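Single-cell RNA was counted in 3 libraries, 1 per genotype. The deposited files hold raw UMI counts for each gene in each cell. PISA 1.0 wrote them, per the file headers, and the submitters' processing notes name STAR and GRCm39. The sources do not state the annotation release. A gene missing from a library's gene list was taken as 0. The deposited counts summed to 65843658 UMIs in YAP5SA, 40857358 in the Yap knockout and 48910624 in the control, and no deposited cell had fewer than 1000.

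Cells with at least 500 genes and at most 20% mitochondrial UMIs were kept. Scrublet (scanpy 1.11.5) called 0 doublets by its own threshold in each library, so cells scoring above the threshold of the highest 6% were removed (511 in YAP5SA, 311 in the Yap knockout and 413 in the control). Cell names are running numbers, and 2409 (YAP5SA and control), 1388 (Yap knockout and control) and 1528 (YAP5SA and Yap knockout) names recur between libraries; they do not show shared cells. A marker counted in a cell where its UMIs per 10000 exceeded the mean of the 3 library means. A cell took the class with most markers, at least 3 of 6 and at least 1 more than any other class. Epithelial subclasses needed 2 markers, and flags for dividing, arterial and lymphatic cells 3. UMIs were summed per class and library as CPM with exact Poisson intervals. Ratios have exact conditional intervals at 95%, and a count of 0 has a limit of 3 counts. Ratios were read for classes of at least 50 cells in both libraries and genes of at least 20 CPM in either, and called at 2-fold. The ratio intervals, the thinned shares and the class rule were tested on simulated counts. That simulation held counting error only, and the class rule was tried on fewer classes than the data have. Filtering, doublet removal, subclasses and flags were not tested in this way. Leiden clusters used 3000 variable genes, 40 components, 15 neighbours and resolution 1.0.

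The members are always named, other claudins where at least 20 CPM in epithelial- or endothelial-like cells, the 2 highest and 2 lowest ratios of each list, and the 3 genes of highest r per member among those reaching 50 CPM; a few genes that this rule names are not reported here. The members and lists were chosen with earlier results of these data known. Alternatives covered the gate, clusters, doublets, mitochondrial limit, depth, cell composition, scaling (TMM in edgeR 4.0.16, median of ratios), weighting, background RNA and the CPM minimum. The work used R 4.3.3 and Python 3.11.15 with scipy 1.17.1, numpy 2.4.6 and pandas 2.3.3.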

Additional observations from a re-analysis of the deposited data

Results flagged for a closer look

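Cldn18 was lower in YAP5SA than in the control in epithelial-like cells, at a ratio of 0.420 (0.398 to 0.443), and higher in gated cells that were neither epithelial- nor endothelial-like, at 1.37 (1.23 to 1.52), and in endothelial-like cells, at 2.23 (1.40 to 3.64). In the control, Cldn18 stood at 17.7 CPM in the cells of neither class and 12.8 CPM in endothelial-like cells. Both higher ratios thus reached the 20 CPM minimum only through YAP5SA. The difference between these classes was not tested. Epithelial-like cells held 77.6% of the 5473 Cldn18 UMIs of YAP5SA, and they were 18.5% of kept cells in YAP5SA and 7.10% in the control. Their part in the outside level was not tested.

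Cells that no class claimed were outside the comparisons and held more of several claudins than such cells of the control, though Cldn18 was lower in YAP5SA, at 42.2 CPM (38.0 to 46.6). Cldn3 stood at 27.5 CPM in YAP5SA and 12.9 CPM in the control. Cldn4 stood at 70.6 CPM in YAP5SA and 59.5 CPM in the Yap knockout, against 30.0 CPM in the control. Cldn7 stood at 67.1 CPM in YAP5SA and 56.0 CPM in the Yap knockout, against 35.7 CPM in the control. Cldn18 stood at 172.4 CPM in the Yap knockout and 76.0 CPM in the control. These cells were shallower than gated cells, at a median of 3369 UMIs in YAP5SA, 2177 in the Yap knockout and 2645 in the control.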

How the results depend on the processing

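No paired analysis was possible because each genotype had 1 library. The number of members at least 2-fold higher in YAP5SA epithelial-like cells was 3, with 2 under the strict gate and with non-epithelial RNA subtracted, and 4 with cells classed by cluster. In the main setting 12.7% of all genes measured were higher and 8.3% lower in YAP5SA, and 2.98% and 3.33% in the Yap knockout. Under the other settings named here the shares of all genes were not counted. Changes in the member counts are therefore not read as particular to claudins. The number of members at least 2-fold lower in YAP5SA was 1, and 2 by clusters, with cells weighted equally and with no minimum CPM. The added member was Cldn5, whose level in epithelial-like cells was low. In the Yap knockout 0 were lower, and 1 by clusters and with no minimum CPM, again Cldn5. There 0 were higher over all epithelial-like cells. Cldn4 did pass 2-fold in pit-like, neck and chief-like and unclassed cells taken alone, and Cldn18 in neck and chief-like and unclassed cells. The Cldn5 ratio of the Yap knockout to the control in endothelial-like cells was 0.476, against 0.450 under TMM scaling and 0.556 with cells weighted equally; the cause was not tested. The YAP5SA ratios of Cldn3, Cldn4, Cldn6, Cldn7 and Cldn18 and the Yap knockout ratios of Cldn4, Cldn7 and Cldn18 in epithelial-like cells kept their direction under 12 alternatives. Cldn6 in YAP5SA lay between 22.7 and 33.6. TMM scaling shifted YAP5SA to control ratios in epithelial-like cells by 0.13 on the log2 scale, which gave 2.29 for Cldn7 and 0.459 for Cldn18. With each cell thinned to 3000 UMIs, Cldn6 had a UMI in 31.4% of YAP5SA epithelial-like cells. A limit of 0.3% stromal UMIs per epithelial-like cell, chosen after seeing the data, gave no value, because it left 90 YAP5SA, 614 Yap knockout and 0 control cells. With 1 library per genotype, differences between embryos, dissection or capture cannot be told apart from genotype, and 34 Cldn6 UMIs in the Yap knockout and 19 in the control epithelium limit that ratio.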

Other observations

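Claudins outside the 6 members had their own cell classes, named here after their values were seen. Cldn15 in mesothelial-like cells stood at 121.9 CPM (83.9 to 171.2) in YAP5SA, 49.4 CPM (23.7 to 90.9) in the Yap knockout and 99.7 CPM (83.6 to 117.9) in the control, from 35 YAP5SA, 23 Yap knockout and 133 control cells. Cldn10 stood at 40.6 CPM in YAP5SA, 84.0 CPM in the Yap knockout and 51.3 CPM in the control in the same cells, with overlapping intervals.

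Cldn13 was counted in erythroid-like cells at 87.2 CPM (78.0 to 97.2, 329 UMIs in 471 cells) in YAP5SA, 1.20 CPM (0.0303 to 6.68, 1 UMI in 168 cells) in the Yap knockout and 33.4 CPM (26.8 to 41.0, 90 UMIs in 341 cells) in the control. Many genes differed in this class. Among all genes measured in it, 24.9% were at least 2-fold higher in YAP5SA than in the control, and 13.7% at least 2-fold lower in the Yap knockout. Nothing particular to Cldn13 is read from its values. The libraries filled the erythroid clusters unequally, with 405 YAP5SA, 1 Yap knockout and 21 control cells in cluster 0 and 7 YAP5SA, 168 Yap knockout and 303 control cells in cluster 27. The part of that difference in the Cldn13 level was not tested.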
